A study of Mus musculus with 20 samples.

Results

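The vehicle-treated baseline of mouse bone marrow-derived macrophages was described from 5 RNA-seq libraries, DMSO replicates 1 to 5, out of 20 libraries in the series. Libraries were chosen by their title alone, with no use of measured values. Bone marrow cells came from C57BL/6 female mice, with no age given, and were grown with 20 ng/mL of a recombinant murine growth factor that the labels spell M-DSF, where such cultures use M-CSF. The mature cells received DMSO, the solvent, for 24 h. The other 15 libraries received the NR0B2 agonist DSHN at 50 µM, the LXR agonist GW3965 at 1 µM, or both, and were not compared here. The labels call the libraries biological replicates without saying whether each came from a separate mouse, so the spread reported below is that between these 5 libraries.

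Macrophages engulf and digest dying cells, microbes and lipoproteins, recycle the iron and cholesterol taken up, and carry a large set of receptors and sensors. M-CSF signals through CSF1R, which macrophages need to survive and grow, and transcription factors such as PU.1 (Spi1) and the MAF proteins set the lineage. Many macrophage functions are served by gene families in which separate cell types use different members, so the member in use is part of the cell's identity. Levels below are in TPM, a measure per length: counts per base of exon, scaled to the same sum in each library. TPM allows genes of different length to be compared within a library. A gene was called expressed when it reached at least 1 TPM in all 5 libraries.

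Between 18082505 and 21990859 counts per library were assigned to genes. Of 46318 genes, 11519 were expressed (24.9%), and 23170 had no read in any library (50%). Of 21741 protein-coding genes, 10911 were expressed (50.2%), 1576 reached 100 TPM in all 5 libraries (7.25%) and 6204 had no read (28.5%). Counts of expressed members in the lists below are to be read against the 50.2%. A count near that share says little about a list. The protein-coding genes held 95.5% ± 0.491 (SD, n = 5) of all TPM. The 3 ribosomal-RNA-like features AY036118, its unnamed neighbour and Mir6236 took 1.01% of counts in replicate 2 and 1.55% in replicate 4, with the other libraries between. Xist, made by the inactive X chromosome, was at 30.0 ± 1.75 TPM and the 4 Y-linked genes listed had no read, which fits the sex on the labels.

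The 84 genes of cytosolic ribosomal proteins together held 84613 ± 2021 TPM, more than the list of iron and heme genes (47130 ± 980) or that of lysosomal genes (39994 ± 1172). As single genes, those of lysozyme, ferritin, the actin skeleton and a lysosomal protease were highest. Lyz2, the lysozyme that breaks bacterial cell walls, was at 27084, 27873, 27127, 26282 and 25689 TPM in replicates 1 to 5. Its mean of 26811 ± 843 (SD, n = 5) was the highest of all genes counted, which include no mitochondrial mRNA. The ferritin subunits came next. Ftl1 was at 24577, 25577, 26348, 26306 and 25694 TPM, and its partner Fth1 at 18062, 17857, 18467, 18585 and 18464 TPM. The lowest Ftl1 value lay above the highest Fth1 value, so the light subunit led in each of the 5 libraries, although Fth1 has the longer transcript and drew more reads. Tmsb4x, which sequesters actin monomers, followed with 14783 ± 454 TPM, then Ctsd, the aspartic protease cathepsin D, with 10609 ± 373 TPM. Eef1a1, which brings tRNAs to the ribosome, was at 9364 ± 337 TPM, and the actin gene Actb at 9051 ± 427 TPM.

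The non-coding AY036118 stood among these with 12416 ± 1776 TPM and Mir6236 with 5680 ± 992 TPM. The range for AY036118 ran from 9838 TPM in replicate 2 to 14552 in replicate 4, while no protein-coding gene named in the paragraph above spread by more than the 5.42% CV of Actb. Mir6236 is annotated over only 123 bases, so a few reads per base give it a high TPM.

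Further down came B2m, the light chain of MHC class I (6245 ± 114 TPM), Ctsb (5025 ± 198), the lysosomal lipid-hydrolysis cofactor Psap (4728 ± 245) and Prdx1, which removes peroxides (4309 ± 87.9). The membrane glycoprotein Gpnmb stood at 4072 ± 153 TPM, the filament protein Vim at 3930 ± 140, and Ctss, which trims the MHC class II invariant chain, at 3822 ± 121. Lpl, the enzyme that frees fatty acids from lipoprotein triglycerides, was at 3515, 3694, 3750, 3573 and 3691 TPM, a narrow span. Next stood Lgals3, the carbohydrate-binding galectin-3 (3403 ± 84.7 TPM), C1qb (3168 ± 43.2), Cfl1, which severs actin filaments (2987 ± 65.2), and the ribosomal stalk gene Rplp1 (2773 ± 121). H2-D1 (2722 ± 82.9 TPM), C1qc (2665 ± 44.3), Apoe (2563 ± 172), Rpl32 (2530 ± 93.3) and Cd36 (2488 ± 144) were the lowest of those named here.

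The 10 highest genes held 14.4% ± 0.392 of the transcript pool, the 100 highest 33.2% ± 0.497 and the 1000 highest 66.0% ± 0.400 (SD, n = 5). Mitochondrial mRNAs were not counted, so this pool leaves them out. The 129 genes with a mean of 1000 TPM or more held 36.3% of the pool, and the 11038 genes with reads but a mean under 1 TPM held 0.189%. The curve of level against rank showed these features: a short plateau of very abundant transcripts, a long slope and a sharp drop near 1 TPM.

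**Figure D1:**
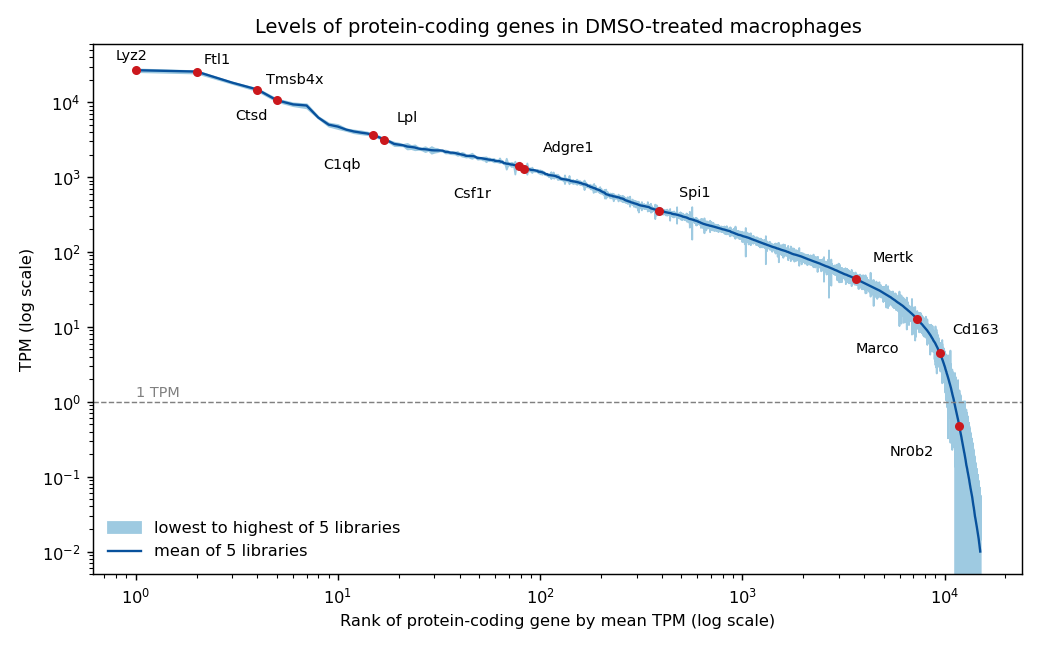
Protein-coding genes are ordered by mean TPM on the x axis (rank, log scale), and the y axis is TPM (log scale); the line is the mean and the band the lowest to highest of the 5 DMSO libraries. Lyz2 (26811 TPM) leads, Adgre1 (1425) and Csf1r (1303) stand near rank 80, and Nr0b2 (0.474) lies below the dashed line at 1 TPM, where the band widens.

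The labelled cell type was borne out by its defining markers. Csf1r, the M-CSF receptor, was at 1374, 1405, 1281, 1212 and 1243 TPM, rank 83 among protein-coding genes. Adgre1, which encodes the F4/80 antigen, was at 1489, 1588, 1409, 1308 and 1332 TPM, rank 79. Both were highest in replicate 2 and lowest in replicate 4. Their CV was 5.498% and 7.29% (the SD over the mean, on CPM, counts scaled by library total and TMM factor). Of 22 macrophage markers, 21 were expressed and 18 reached 100 TPM in all 5 libraries. Cd68 (1976 ± 85.0 TPM), the perforin-like Mpeg1 (1912 ± 131), the integrin chain Itgam (836 ± 41.7) and the mannose receptor Mrc1 (596 ± 69.4) were among them.

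Some markers of particular tissue macrophages were low, though other members of the list were not, such as Siglec1 (125.5 TPM) and Cx3cr1 (275.8). Marco, a scavenger receptor of alveolar and marginal zone macrophages, was at 12.8 ± 1.87 TPM, and the haemoglobin scavenger receptor Cd163 at 4.51 ± 0.242. Timd4, of long-lived resident macrophages, was below the call at 0.268 TPM. Lineage transcription factors were all expressed, 23 of 23. Spi1 was at 349, 369, 353, 358 and 360 TPM, and Maf at 337 ± 6.11 TPM. Cebpa (137 ± 7.13) stood above Cebpb (78.2 ± 4.67), Irf8 was at 105 ± 5.11, and Klf4 at 6.03 ± 0.306 was the lowest of the list.

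Markers of other blood lineages were mostly low. Of 14 neutrophil markers 3 were expressed, and S100a9, Elane, Camp, Ctsg and Retnlg had no read. The list's summed level was 59.3 to 76.6 TPM, nearly all from the metalloproteases Mmp8 (31.8 ± 3.27) and Mmp9 (29.1 ± 2.90), genes that are not exclusive to neutrophils. None of the 10 erythroid markers was expressed, with a summed level of 1.04 to 1.41 TPM. The 4 globin genes there had no counted read, but near-identical copies lose reads that align to both. In the dendritic cell list, Cd74 (104 ± 8.04 TPM) and Itgax (50.3 ± 7.36) were present, while Flt3 and Ccr7 had no read and Zbtb46 was at 0.280 TPM. Of 9 monocyte markers 6 were expressed. Fn1 made up most of the list's 434 to 588 TPM, Ccr2 (11.04 TPM), F13a1 (6.03) and Vcan (4.73) were lower, and Chil3 had no read.

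A few markers of other lineages stood out from lists that were mostly near 0. Of 14 T and NK cell markers 3 were expressed. Il7r, the IL-7 receptor chain of lymphocytes, was at 104, 109, 96.8, 90.8 and 93.5 TPM. Cd4 was at 6.405 TPM and Trac at 1.934, while Cd3d, Cd3e, Cd3g, Cd8a and Gzma had no read. Ighm, the heavy chain of IgM, was at 54.5, 85.9, 77.9, 42.5 and 37.2 TPM, and Cd79b, of the B cell receptor, at 11.9 TPM, while Pax5 had no read and Cd79a was at 0.0833 TPM. Igkc, the kappa light chain, was at 8.72 TPM in replicate 2, at 0.444 in replicate 4 and without a read in the other three. Mcpt8, a basophil protease, was at 7.99 ± 2.63 TPM with no read from Cpa3, Fcer1a or Ms4a2. Pf4, best known from platelets, was at 717 ± 77.5 TPM, but Itga2b was at 0.119. Ly6a, the SCA-1 antigen, was at 127 ± 37.2 TPM with Kit at 0.198.

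The stromal and endothelial list had the largest summed level of the lists of other cell types, 1944 to 2338 TPM. Acta2, smooth muscle actin, was at 884, 853, 763, 765 and 800 TPM. The collagen gene Col1a1 was at 686, 629, 650, 603 and 525 TPM, Col1a2 at 554 ± 48.3 and Col3a1 at 104 ± 8.57. Of the 14 markers 10 were expressed. Among stromal genes other than these, Pdgfrb was at 23.6 TPM, Cxcl12 at 9.91 and Pdgfra at 1.52 ± 0.155, and Dcn (0.307) and Lepr (0.148) were below the call. Of 44 collagen genes 20 were expressed, a share of 45.5% against the 50.2% of all protein-coding genes. Osteoclasts also grow from these precursors, and 7 of 10 of their markers were expressed, the receptor Tnfrsf11a at 74.3 TPM and the bone-resorbing enzymes Ctsk and Acp5 at 21.1 and 15.7, with no read from Calcr. In bulk RNA, a few cells with much RNA and many cells with little cannot be told apart, and which cells held these transcripts was not tested.

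The choice between paralogues was examined in 97 families with 415 members. In 26 families 1 member held over 90% of the family's TPM, in 54 it held over 50% and up to 90%, and in 17 no member passed 50%. The median share of the leading member was 73.9%. In 90 families (92.8%) the lowest library of the leading member lay above the highest library of the next. The other 7 families, PFKFB enzymes, nitric oxide synthases, Src kinases, interferon regulatory factors, PPARs, Ms4a proteins and the growth factors of the PDGF and VEGF group, had overlapping first and second members.

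Lysozyme, the family of the highest gene, was among those with 1 strongly leading member. Lyz1, the Paneth cell lysozyme, was at 12.3, 13.9, 12, 11 and 12.6 TPM, and the ratio of Lyz2 to Lyz1 was between 2009 and 2390 in the 5 libraries. Both genes lie on chromosome 10 in GRCm39, Lyz2 at 117113446 to 117118177 and Lyz1 at 117123700 to 117128773 on the same strand, so they are neighbours. Reads that match both copies equally were not counted, so the Lyz1 level in particular is uncertain. The 120 bases before each start are shown because the 2 genes differ so much in level. Sequences are from RefSeq, build GRCm38.p6, on the minus strand at chr10:117282273-117282392 for Lyz2 and chr10:117292869-117292988 for Lyz1, 5′ to 3′. Capitals mark the ETS core AGGAAGT, here read on the opposite strand, the letters that PU.1 and related factors recognise.
Lyz2: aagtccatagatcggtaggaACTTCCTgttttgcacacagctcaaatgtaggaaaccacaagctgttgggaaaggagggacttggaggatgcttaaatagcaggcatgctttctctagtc
Lyz1: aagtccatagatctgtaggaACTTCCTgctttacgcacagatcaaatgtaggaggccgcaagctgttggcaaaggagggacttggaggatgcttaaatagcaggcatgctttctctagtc
The last 50 bases before the start were identical and 111 of 120 bases (92.5%) matched without gaps. Over 250 bases aligned with gaps the identity was 79.4%. Both promoters hold the ETS core, which was found in 7.69% of all 32851 promoters, searched on both strands over 250 bases, so these letters did not separate the 2 genes. Of 18 promoters of macrophage markers with an entry, 3 held it.

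Cathepsins were divided among more members. Ctsb held 41.8% ± 0.944 of the cysteine cathepsins, ahead of Ctss, Ctsl (1635 ± 98.4 TPM) and Ctsz (1031 ± 14.8), while Ctsk, the osteoclast collagenase, was at 21.1 ± 1.36 and Ctsw at 0.286. Among aspartic cathepsins Ctsd held 99.98%, with Ctse at 2.23 ± 0.535 TPM. The list of lysosomal genes, which held no V-ATPase subunit, was nearly all present. Of 34 members 33 were expressed and 24 reached 100 TPM in all libraries, together 4.00% ± 0.117 of the pool. The membrane protein Lamp1 was at 2285, 2414, 2281, 2210 and 2190 TPM, above Lamp2 at 350 ± 14.5. The acid lipase Lipa, which frees cholesterol from lipoprotein esters, was at 2060 ± 115 TPM and the cholesterol carrier Npc2 at 679 ± 14.03.

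Lysosomal promoters are known for E-boxes read by TFEB and TFE3, of the same MiT group as MITF. The 120 bases before the starts of 2 abundant lysosomal genes are shown with CACGTG in capitals, from RefSeq, build GRCm38.p6, 5′ to 3′. Ctsd is at chr7:142387828-142387947 on the minus strand and Lamp1 at chr8:13159041-13159160 on the plus strand.
Ctsd: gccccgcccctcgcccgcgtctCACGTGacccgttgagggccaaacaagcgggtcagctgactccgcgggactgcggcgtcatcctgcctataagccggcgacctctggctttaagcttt
Lamp1: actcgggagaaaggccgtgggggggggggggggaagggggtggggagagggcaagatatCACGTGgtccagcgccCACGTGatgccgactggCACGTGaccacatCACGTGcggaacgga
Ctsd holds 1 match and Lamp1 holds 4. Of 55 promoters of genes for the lysosome list and the V-ATPase, 13 held CACGTG (23.6%), against 6.02% of all 32851 promoters. The longer TCACGTGA, which contains CACGTG, was in 5 of the 55 and in 0.785% of all. The genes were chosen as known lysosomal genes, so these shares describe the list and are no result about the libraries. A match describes letters, and binding was not measured. Of the MiT factors, Tfe3 was highest at 94.7 ± 1.73 TPM, before Mitf (33.1 ± 2.60), Tfec (17.2 ± 1.78) and Tfeb (9.77 TPM).

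For the B and C subunits of the proton pump that acidifies lysosomes, transcripts of the widespread forms led. Atp6v1b2 was at 552 ± 13.4 TPM and the kidney-type Atp6v1b1 had no read. Atp6v1c1 held 99.98% of the C subunits. For the d subunit both forms were present, with Atp6v0d1 at 243 ± 3.40 TPM and Atp6v0d2, an osteoclast and macrophage form, at 156, 185, 169, 140 and 144 TPM. The ranges did not overlap in TPM, but on CPM, which ignores length, the order was reversed. In the a subunit family Atp6v0a1 (143 ± 7.67) stood above Tcirg1 (116 ± 4.11).

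**Figure D2:**
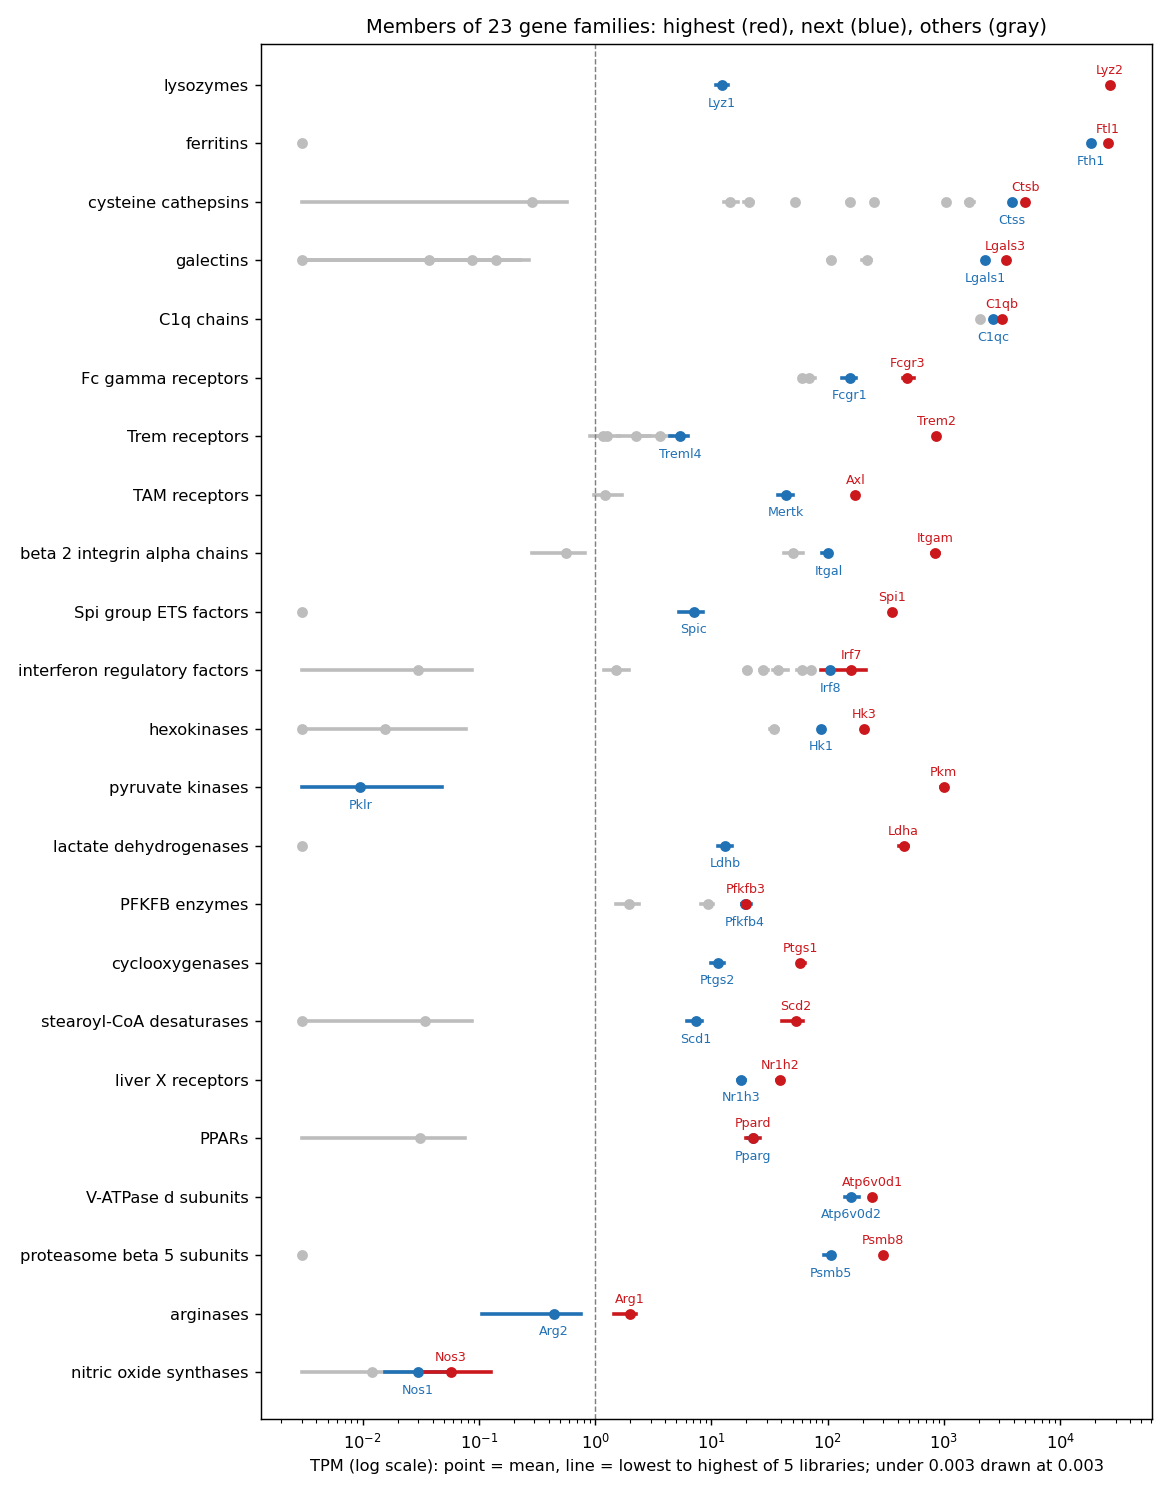
Each row is 1 of 23 families, with TPM on the x axis (log scale, values under 0.003 drawn at 0.003): the red point is the highest member's mean, the blue point the next, gray points the others, and each line runs from the lowest to the highest of the 5 DMSO libraries. Lyz2 and Lyz1 (26811 and 12.4 TPM) lie far apart, while the points of Ppard and Pparg (22.9 and 22.5) coincide.

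Surface receptors followed a clear order. In the Fc gamma receptors, which bind antibody-coated targets, Fcgr3 was at 477, 549, 498, 446 and 446 TPM and the high-affinity Fcgr1 at 157, 134, 146, 162 and 175 TPM. Fcgr3 was highest in replicate 2, where Fcgr1 was lowest, and the ranges did not overlap. The inhibitory Fcgr2b (69.1 ± 7.27 TPM) and Fcgr4 (60.4 ± 3.03) were lower. Signalling adaptors with an ITAM were far more abundant, Tyrobp at 2124 ± 44.5 TPM and Fcer1g at 1486 ± 48.6. Trem2, a lipid-sensing receptor that signals through Tyrobp, held 98.4% ± 0.227 of the Trem family at 838, 888, 871, 848 and 831 TPM, with Trem1 at 3.58 TPM.

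Of 25 phagocytic and scavenger receptors 18 were expressed, against 50.2% of all protein-coding genes. Cd36, which takes up oxidised lipoproteins, led the list with 2488 TPM. Lrp1 (410 ± 18.6), Stab1 (361 ± 30.3) and Msr1 (316 ± 29.1) followed Mrc1. Among TAM receptors, which recognise dying cells through bridging proteins, Axl (173 ± 6.09 TPM) stood above Mertk (43.4 ± 5.28), and Tyro3 was at 1.22 ± 0.288. Itgam was 7.50 to 9.24 times the next beta 2 partner chain, Itgal, and Itgb1 (875 ± 34.8) stood above Itgb2 (724 ± 42.9).

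The 3 chains of C1q, which opens the classical complement pathway, lie together on chromosome 4 and varied little, with a CV of 1.59% to 2.99%. C1qb was at 3156, 3239, 3152, 3168 and 3123 TPM, C1qc at 2649, 2737, 2643, 2676 and 2622, and C1qa at 1996, 2023, 2074, 2060 and 2007. The ratio of C1qb to C1qc was between 1.18 and 1.19 in all 5 libraries. The complement list held 14 of 20 expressed members, with the receptors C3ar1 (885 ± 18.8 TPM) and C5ar1 (804 ± 94.9) and properdin, Cfp (568 ± 7.57). C3 itself was at 21.6 ± 2.43 TPM and C4b at 0.0982.

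Sensors of microbes covered nucleic acids and glycans. Clec4d, a receptor for mycobacterial glycolipid, was at 976 ± 24.1 TPM and the fungal glucan receptor Clec7a at 401 ± 49.1. Among Toll-like receptors the ribosomal RNA sensor Tlr13 was highest, at 632, 631, 546, 559 and 583 TPM. Tlr8 (177 ± 16.7 TPM) and Tlr7 (140 ± 14.3) stood above the lipopeptide receptor Tlr2 (83.9 ± 7.27) and the endotoxin receptor Tlr4 (71.8 ± 4.74). Tlr5 was at 1.13 ± 0.113 TPM, and Tlr11 and Tlr12 were at 0.0161 and 0.0247. Of the inflammasome sensors, Nlrp3 was at 67.1 ± 4.63 TPM, Nlrc4 at 14.9 ± 0.778 and Aim2 at 10.5 ± 0.657.

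Cytokine receptors and cytokines were both widely present, but several inflammatory cytokines were near 0. Of 33 receptor genes 30 were expressed, led by Csf1r, then Il10rb (315 ± 8.86 TPM), Ifngr1 (290 ± 27.3) and Tnfrsf1a (251 ± 8.43). The decoy receptor Il1r2 was at 0.0218 TPM and Il18r1 at 0.0207. Among 32 cytokines and growth factors 22 were expressed. Spp1, the matrix cytokine osteopontin, was at 2289 ± 183 TPM and granulin, Grn, at 2272 ± 21.9. Tgfb1 was at 410, 405, 411, 407 and 410 TPM, with a CV of 1.75% on CPM. Igf1 was at 308 ± 12.7 TPM and Tnf at 26.4 ± 7.30. Il1b was at 1.01 ± 0.254 TPM, Il6 at 0.259 and Il12b at 0.0226, while Il12a, Il23a and Ifnb1 had no read.

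Chemokines were uneven. Ccl9 (864 ± 48.6 TPM), Ccl6 (538 ± 44.1), Ccl2 (273 ± 105) and the membrane-bound Cxcl16 (199.5 ± 10.05) were highest beside Pf4, and Ccl22, Ccl20, Ccl11 and Cxcl13 had no read. Of 23 chemokine receptors 8 were expressed, with the fractalkine receptor Cx3cr1 at 276 ± 16.2 TPM, Cxcr4 at 101 ± 18.8 and Ccr2, of inflammatory monocytes, at 11.04 ± 1.36. Of 51 receptors for lipids and nucleotides 28 were expressed and 3 reached 100 TPM in all libraries, shares near those of all protein-coding genes (50.2% and 7.25%). P2ry6, which senses UDP, was at 224 ± 9.10 TPM, P2rx4 at 113 ± 5.66 and S1pr1 at 109 ± 8.12.

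Nuclear receptors, the class that the study's compounds address, were all below 100 TPM. Of 49 members 22 were expressed, near the 50.2% of all protein-coding genes, and 8 had no read, against 28.5% of all. The glucocorticoid receptor Nr3c1 was highest at 59.1 ± 1.247 TPM, followed by Rxra (50.0 ± 1.78). Of the liver X receptors, sterol sensors and the targets of GW3965, Nr1h2 (LXR beta) was at 39.5, 40.2, 37.8, 36.7 and 40.7 TPM. Nr1h3 (LXR alpha) was at 17.9, 16.9, 18.3, 19.3 and 17.5 TPM, below Nr1h2 in each library and with no overlap. Nr0b2, the corepressor that DSHN is meant to activate, was at 0.491, 0.415, 0.779, 0.332 and 0.353 TPM, below the 1 TPM call in every library. These levels rest on 3 to 8 reads per library. Ppard (23.7, 26.4, 22.2, 22.5 and 19.9 TPM) and Pparg (22.4, 23.8, 23.9, 21.9 and 20.8 TPM) could not be ordered, since their ranges overlap. Ppara was at 0.0313 TPM, and Hnf4a and Nr1h5 had no read.

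The lipid genes that LXR is known to control, a list made after the values were seen, had 15 of 16 members expressed. Lpl and Apoe led, followed by Smpdl3a (547 ± 17.4 TPM), Cd5l (247 ± 26.8) and Pltp (240 ± 27.8). The sterol exporters Abca1 (55.3 ± 12.1) and Abcg1 (37.4 ± 7.78) were lower, and Abcg4 was at 0.0193 TPM. In the list for sterol synthesis and handling 26 of 27 genes were expressed, led by Lipa and Npc2. Srebf2 (75.02 ± 1.32 TPM), the sterol-synthesis regulator, stood above Srebf1 (26.6 ± 1.40), which drives fatty acid synthesis.

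In glycolysis all 20 listed genes were expressed, 10 of them at 100 TPM or more in all libraries, and most steps had a clear leading isoenzyme. Hk3 was at 201, 207, 199, 212 and 206 TPM, above Hk1 (87.9 ± 2.39) and Hk2 (34.6 ± 2.22). Aldoa held 98.3%, Eno1 99.5% and Ldha 97.1% of their families. Pkm was at 992 ± 41.7 TPM with a single read from Pklr in the 5 libraries, and Pgk2 and Ldhc, of the testis, had no read. Pfkl (70.0 ± 4.59) stood above Pfkp (24.5 ± 0.940) in TPM, but the 2 were level on CPM. The glucose transporter Slc2a1 was at 71.5 ± 6.43 TPM, with Slc2a2 without a read.

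The pentose phosphate pathway, which supplies NADPH, was as prominent as parts of glycolysis. Taldo1 was at 1152 ± 26.0 TPM, Pgd at 817 ± 15.0 and G6pdx at 409 ± 17.7, and 8 of 8 genes were expressed. All 24 genes listed for the tricarboxylic acid cycle were expressed, led by Mdh2 (310 ± 17.6 TPM). Acod1, the enzyme that makes itaconate in activated macrophages, was at 9.16 ± 2.30 TPM. Of 13 genes listed for NADPH oxidases 8 were expressed, with Cyba at 942 ± 19.8 TPM, Cybb at 767, 763, 718, 646 and 640, Ncf1 at 297 ± 8.71 and Ncf4 at 159 ± 3.00. Nox3, Duox1 and Duox2 had no read.

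Arginine metabolism was nearly silent at its macrophage branch points. Arg1, a marker of IL-4-activated macrophages, was at 2.22, 1.44, 2.20, 1.83 and 2.24 TPM, and Nos2, of interferon-activated macrophages, at 0.0121 TPM on average, from a single read in each of replicates 1 and 2. Glul (276 ± 9.69 TPM), the spermidine acetylase Sat1 (230 ± 21.3) and Oat (201 ± 4.28) led the 12 of 17 expressed genes of that list. Prostaglandin synthesis rested on Ptgs1 (58.3 ± 3.35 TPM), with the inducible Ptgs2 at 11.3 ± 1.49. The leukotriene-pathway protein Alox5ap was at 707 ± 19.3 TPM and its partner enzyme Alox5 at 7.63 ± 1.71.

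Genes of iron and heme held 4.71% ± 0.0980 of the pool, most of it ferritin. Hmox1, which degrades heme, was at 1281, 1093, 1111, 1387 and 1547 TPM, higher than Hmox2 (106 ± 2.59) in each library and more variable. The exporter Slc40a1 (ferroportin) was at 244 ± 23.05 TPM, the phagosomal Slc11a1 at 218 ± 10.01 and the transferrin receptor Tfrc at 154 ± 14.6. Peroxide removal was led by Prdx1, then Gpx1 (1043 ± 51.8 TPM) and catalase, Cat (a mean of 670.3 TPM). MHC class I genes were high and class II genes low, with Cd74 at 104 TPM, H2-Ab1 at 20.6 ± 1.41, H2-Aa at 12.1 ± 1.59 and their activator Ciita at 0.265. The immunoproteasome subunit Psmb8 (301 ± 12.9 TPM) led its constitutive counterpart Psmb5 (106 ± 8.88), whereas the constitutive Psmb6 (243 ± 5.45) and Psmb7 (292 ± 13.5) led Psmb9 (82.2 ± 2.69) and Psmb10 (93.2 ± 6.96).

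Genes of proliferating cells were abundant. All 24 cell cycle genes were expressed and 13 reached 100 TPM in every library, among them the replication clamp Pcna (732 ± 39.4 TPM), Top2a (381 ± 15.3) and Mki67 (219 ± 10.7). The cell cycle inhibitor Cdkn1a was present as well, at 359 ± 17.3 TPM. Ccnd1, the cyclin induced by growth factors, was at 279, 215, 233, 309 and 349 TPM and led Ccnd3 (49.5 ± 4.85) and Ccnd2 (45.6 ± 2.29).

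Structural and carrier families were led as follows. Actb held 82.2% ± 1.19 of the actins, with Actg1 at 833 ± 27.4 TPM, and Tubb5 held 70.0% of the beta tubulins. Among galectins Lgals3 was 1.47 to 1.59 times Lgals1 (2258 ± 32.0 TPM). Of the S100 proteins S100a4 (2001 TPM) and S100a6 (1183 ± 41.3) led, while S100a8 was at 5.76 TPM. Fabp5 (473 TPM), a fatty acid carrier, stood above Fabp4 (94.8 ± 5.58), and the lipid droplet coat Plin2 (388 TPM) above Plin3 (123 ± 3.87). Soat1, which makes cholesterol esters, held 99.9% of its pair, and Scd2 was 6.48 to 7.84 times Scd1. The fatty acid importer Cpt1a was at 98.4 TPM, and Cpt1b, at 0.0104, shares most of its exon bases with another gene.

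Signalling families had their own leaders. Syk held 99.96% with Zap70, of T cells, at 0.0263 TPM. The Gi subunit Gnai2 (1223 ± 18.0 TPM) was 5.39 to 5.68 times Gnai3 in the 5 libraries. Stat6 (169 ± 6.04) led the STAT factors, Jak1 (170 ± 9.16) the Janus kinases and Akt1 (273 ± 6.82) the Akt kinases. Mmp12, the macrophage elastase, held 74.1% ± 1.19 of the matrix metalloproteases at 1056 ± 82.5 TPM.

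Whole gene families had few or no expressed members. Reads that align to several places were not counted, so in families of near-identical copies a 0 does not show that a gene was silent. None of 1109 olfactory receptor genes was expressed and 1078 had no read, although Olfr111 averaged 1.107 TPM. None of 355 vomeronasal receptors, 35 bitter taste receptors, 56 keratin-associated proteins or 70 defensins was expressed, and 22 of 22 major urinary protein genes and 15 of 15 trace amine receptors had no read. Among 53 keratins Krt80 (5.86 ± 0.285 TPM) and Krt19 (2.48 ± 0.348) were expressed, and among 35 claudins only Cldn12 (5.28 ± 0.464). Of 94 potassium channel genes 8 were expressed, led by Kcnn4 (114 ± 14.2 TPM), the calcium-activated channel of blood cells. Alb, Ins1, Ins2, Myh6, Sftpc, Krt5 and 12 other tissue-restricted genes of 27 had no read. With 101405211 counts over the 5 libraries, a count of 0 allows a level of up to 0.0296 CPM (3 counts of the total, counting error only).

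A count near 0 was not always a silent gene. Of 84 cytosolic ribosomal protein genes 79 were expressed, together 84613 TPM, yet Rpl28 was at 0.647 TPM, with between 1 and 4 reads in each library. In the annotation of the files, 89.3% of the exon bases of Rpl28 also belong to another gene model, and reads over 2 genes were not counted. Other low genes shared exons in the same way: Ackr1 99.5%, Trpc2 100%, Cpt1b 94.8%, Ptger1 70.0%, Adora3 69.1% and Apoc2 60%. Of 84 protein-coding genes with at least 90% of exon bases shared, 70 had no read, against 28.5% of all protein-coding genes. Abundant genes were touched too, with 47.4% shared for Sod1 and 54.2% for the cyclophilin Ppib, and reads over those bases are missing from their TPM. Apoc1 and Chil3, at 0.0480 TPM and without a read, shared no exon base. Reads that align to several places were left out too, so this does not show that either gene was silent.

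The 5 libraries agreed closely. Among 8799 genes averaging 10 CPM or more (with TMM factors), the median CV was 5.06%, and from the 10th to the 90th percentile it ran from 2.42% to 9.68%. Counting error alone gives a median of 3.17%. The CV was over 2 times the counting error in 2922 genes (33.2%), and over 20% in 35. Slf2, Kctd12, Xpo6, Dnmt3a and Hnrnpc were among the steadiest, with CVs of 0.477% to 0.584%, below their counting error, which 5 values can give by chance in so many genes.

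The 12 most variable genes included the chemokines Ccl7 and Ccl2 and the interferon-stimulated Ifi44, Irf7, Rtp4 and Oas3. Ccl7, a monocyte attractant, was at 66.0, 24.9, 35.8, 81.1 and 107 TPM, a CV of 52.7% against a counting error of 5.18%. Its neighbour Ccl2 was at 312, 149, 183, 317 and 403 TPM, a CV of 38.2%. Both were lowest in replicate 2 and highest in replicate 5. The same holds for Ifi44 (CV 34.3%), Ly6a (29.6%), Rtp4 (27.3%), Tnf (27.1%), Gpr84 (26.6%), Oas3 (26.5%) and Irf7 (31.6%), whose TPM were 160, 88.3, 137, 200 and 213. Ighm (CV 36.0%) ran the other way, highest in replicate 2 and lowest in replicate 5. Egr1 (29.9%) was highest in replicate 1, and the nuclear RNA Malat1 (32.9%), at 102, 94.3, 165, 197 and 126 TPM, was highest in replicate 4.

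**Figure D3:**
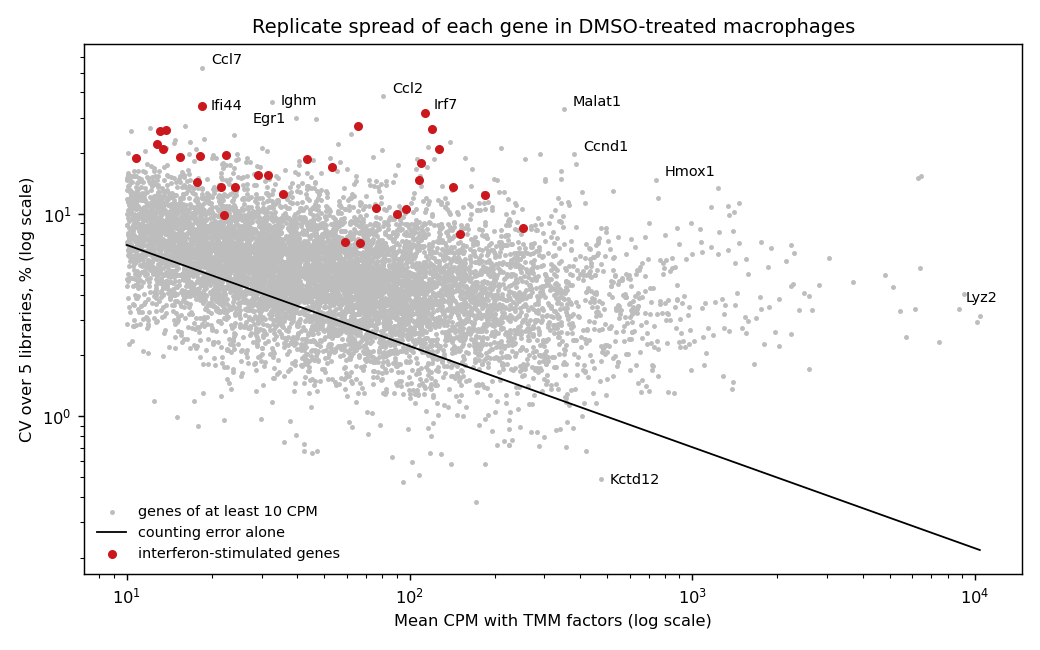
Each gray point is a gene averaging 10 CPM or more (x axis, log scale) and its CV over the 5 DMSO libraries in percent (y axis, log scale); the black line is the CV from counting error alone and red points are interferon-stimulated genes. The red points lie above the line, with Ifi44 at 34.3% and Irf7 at 31.6%, while Kctd12 (0.492%) lies below it.

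Interferon-stimulated genes, which block virus replication and are set by low interferon levels even without infection, shared a low level in replicate 2. In a list of 40 made after the values were seen, 39 were expressed, and their summed level ran from 1720.5 TPM in replicate 2 to 2627 in replicate 5. Of the 33 members with at least 10 CPM, 32 were lowest in replicate 2, against 23.9% of all such genes, and 18 were highest in replicate 5, against 22.5%. Both held for 18 of 33, against 10.6%. All 33 had a CV over 2 times the counting error, and their median CV was 15.7%. Isg15 was at 34.3, 19.3, 29.1, 42.8 and 42.2 TPM and Ifit1 at 15.5, 8.11, 13.6, 16.4 and 17.4. Replicate 2 stood lowest for each of these genes and for Ifit3 (7.50 TPM), with the other libraries at 13.8 to 16.1 for Ifit3.

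Promoters of 3 of these genes are shown, since 32 of the 33 members with at least 10 CPM were lowest in replicate 2. They are from RefSeq, build GRCm38.p6, 5′ to 3′, and capitals mark the interferon response core on either strand, spelled GAAA, any 2 bases, GAAA. Ifit1 is at chr19:34640769-34640888 (plus strand), Ifit3 at chr19:34583369-34583528 (plus strand) and Isg15 at chr4:156200819-156200968 (minus strand).
Ifit1: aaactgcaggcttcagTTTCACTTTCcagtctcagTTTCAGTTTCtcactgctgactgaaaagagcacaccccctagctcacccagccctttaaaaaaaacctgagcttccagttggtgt
Ifit3: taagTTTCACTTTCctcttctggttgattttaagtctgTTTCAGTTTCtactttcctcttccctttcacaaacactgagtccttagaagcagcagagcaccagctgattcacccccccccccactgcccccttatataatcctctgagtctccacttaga
Isg15: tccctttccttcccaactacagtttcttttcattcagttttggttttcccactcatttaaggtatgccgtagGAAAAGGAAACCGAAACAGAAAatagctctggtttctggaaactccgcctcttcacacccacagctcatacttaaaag
Ifit1 and Ifit3 hold 2 matches each and Isg15 holds 3 that overlap. Of 35 promoters of listed genes with an entry, 14 held the core (40%), against 2.98% of all 32851 promoters. The list was made of known interferon targets, so this share describes the list and is no result about the libraries.

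Other groups also differed between replicates 2 and 5, with orders taken on CPM with TMM factors. Of 10 chemokine ligands with at least 10 CPM, 7 were lowest in replicate 2 and highest in replicate 5, against 10.6% of all genes. The same held for 11 of 24 cell cycle genes, 5 of 11 genes of arginine metabolism and 8 of 19 glycolytic genes. The opposite order, highest in replicate 2 and lowest in replicate 5, was also found in 10.6% of all genes. It held for 8 of 15 lipid genes known as LXR targets, 7 of 17 nuclear receptors and 12 of 32 lysosomal genes. On TPM summed over all members, chemokine ligands were lowest in replicate 2 and highest in replicate 5. Cell cycle and glycolytic genes were lowest in replicate 3, and arginine genes in replicate 1. The lists of the opposite order were highest in replicate 2. Replicate 2 was lowest for 13 of 24 cell cycle and 13 of 19 glycolytic genes on CPM, but for 7 and 7 on TPM. Abca1 was at 61.6, 71.1, 57.3, 45.1 and 41.5 TPM and Abcg1 at 37.6, 47.0, 43.0, 31.0 and 28.6. Their CVs were 21.3% and 20.6%, so the baseline of these LXR targets differed by more than 1.5 times between DMSO libraries with no agonist added. Library totals were highest in replicate 1 and lowest in replicate 5, and the share of ribosomal-RNA-like counts was lowest in replicate 2; their part in these differences was not tested.

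**Figure D4:**
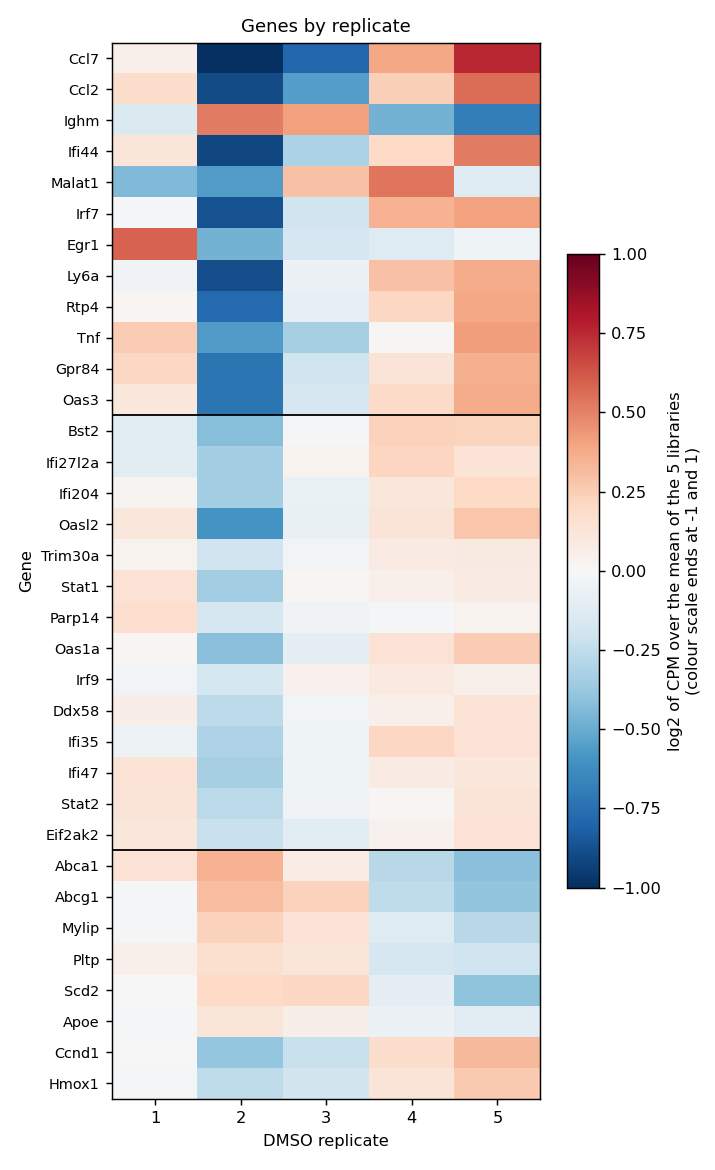
Rows are genes and columns the 5 DMSO replicates; colour is the log2 of CPM over the gene's mean of the 5 libraries (scale ends at -1 and 1). The upper block holds the 12 most variable genes, the middle block 14 more interferon-stimulated genes and the lower block 8 lipid, cyclin and heme genes; replicate 2 is blue for nearly all of the upper blocks (Ighm is red) and red for Abca1 and Abcg1.

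Pairs of libraries differed beyond counting error throughout, which does not show whether they came from separate mice. The chi-square per degree of freedom over the 8799 genes was 3.19 for replicates 4 and 5, the closest pair, and 12.5 for replicates 2 and 4, the farthest. Between replicates 2 and 5, 11 genes differed by over 2-fold, and the median absolute log2 ratio was 0.10. The common biological coefficient of variation estimated by edgeR over 12316 genes was 0.0527. Deviations of the DMSO libraries from their mean, across the 8799 genes, were correlated with those of the same-numbered libraries of the other groups at an r of 0.27 to 0.41 for GW3965, 0.18 to 0.39 for both compounds and -0.41 to 0.3 for DSHN. DMSO replicates 1 to 4 had their highest r with their own number in GW3965 and in both compounds. Replicate 5 had its highest r with number 4 there (0.59 and 0.49). In DSHN only replicate 3 had its highest r with its own number. Genes are not independent replicates, and the labels do not say what a shared number stands for. Whether same-numbered libraries share a source was therefore not tested.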

How the data were processed

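RNA-seq libraries were made with a stranded mRNA kit, per the labels' protocols. STAR and featureCounts are named in the submitters' processing notes, and the deposited counts per gene come from featureCounts 2.0.0 on GRCm39, per the file headers. The command in the headers sets no strand and no option for reads that align to several places or overlap 2 genes, so by default such reads are left out. The files also give each gene's summed exon length, the authors' other deposited column, a value in bases. Gene names came from a RefSeq table (GRCm38.p6) for 44749 of 46318 gene IDs. Of the 24 mitochondrial features 0 are protein-coding, so mitochondrial mRNAs were not analysed here. Depth was 18082505 to 21990859 counts per library.

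TPM was computed over all genes of the files. Replicate spread used CPM with TMM factors from edgeR 4.0.16. DESeq2 1.42.0 size factors were an alternative, as were counts without length, other minimums and leaving out each library. The spread calculation was tested on simulated data. No test between groups was run, since 1 group was described. Members, lists and families were chosen with earlier results of these data known. Named are the 25 highest nuclear genes, the first and next member of each family and its silent members, expressed and silent members of each list, and the 12 most and 6 least variable genes. Genes outside this rule, such as Rpl28 and Nr0b2, were chosen after values were seen. So were listed members between 0.1 and 1 TPM, members of families with few expressed genes, and 4 lists (interferon-stimulated, LXR-responsive, RNA quality, sex-linked). Of the list symbols 3 had no match. Some listed genes are counted in totals but not reported here by name.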

Additional observations from a re-analysis of the deposited data

Results flagged for a closer look

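Among 240 named genes with a mean of at least 1 TPM, 8 had a DMSO library that stood apart from the other four, with a gap to its nearest neighbour of over 0.71 of the whole range (Dixon's 95% limit). Chance flags about 1 in 20 genes, so 8 of 240 is no excess. The kappa light chain Igkc was at 8.724 TPM in replicate 2 and at most 0.444 elsewhere, in the library where Ighm was also highest. Ifit3 was lowest in replicate 2 at 7.496 TPM, with the others at 13.75 or more. Srebf2 was highest in replicate 2 at 77.37 TPM and Srebf1 lowest in replicate 4 at 24.1 TPM. Mmp9 was highest in replicate 1 at 34.14 TPM and Tyro3 highest in replicate 4 at 1.717 TPM. Vcan, a matrix proteoglycan of the monocyte list, was highest in replicate 1 at 6.083 TPM. The claudin Cldn12 was lowest in replicate 3 at 4.473 TPM.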

How the results depend on the processing

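The count of expressed genes, 11519, was 11567 at 1 CPM, 12318 at 10 reads and 9263 at 5 TPM, and 11566 to 11577 with a library left out. The share of the 10 highest genes became 7.688% of read counts, without length, and 13.68% over protein-coding genes only. It was 14.26% to 14.5% with a library left out. The median CV was 6.181% over genes of at least 1 CPM and 20.13% over all genes with a read, and 4.735% (without replicate 2) to 5.071% (without replicate 4) with a library left out. The leading member stayed the same in 97 of 97 families with TMM factors and in 83 under CPM. Under CPM, which ignores length, the log2 ratio of first to next member turned negative in 13 families with a value: Ftl1 over Fth1 (-0.15), Pfkl over Pfkp (-0.012), Nos3 over Nos1 (-0.25), Sod1 over Sod2 (-0.68), Atp6v0d1 over Atp6v0d2 (-0.69), Vdac2 over Vdac1 (-0.19), Irf7 over Irf8 (-0.22), Junb over Jun (-0.55), Fos over Fosl2 (-0.60), Ppard over Pparg (-0.13), Rarg over Rara (-0.12), Tnfrsf1a over Tnfrsf1b (-0.79) and Timp1 over Timp2 (-1.34). With a library left out, the leading member stayed in at least 96 of 97 families; among the 470 ratios reported, Ppard over Pparg turned and ran from -0.012 (without replicate 2) to 0.06, and a family not reported here by name changed its leader without replicate 3. Of 430 list counts under other minimums or with a library left out, 12 moved by over 1.5 times, nearly all at 5 TPM. Depth limits genes of few reads such as Nr0b2. No paired analysis was possible because only the DMSO group was described, with no comparison between groups.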
